A study of Mus musculus with 6 samples.

Results

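The genes described here are 10 genes of the insulin-like growth factor axis: Igf2, H19, Igf2r and Grb10, which are imprinted, and their partners Igf1r, Insr, Irs1, Irs2, Igf2bp1 and Igf2bp3. They were followed in mouse embryonic stem (ES) cells on Affymetrix mouse whole-genome expression arrays. Members were all probe sets to which the array's probe table gives exactly 1 gene symbol, that of a listed gene. This gave 27 probe sets of 9 genes, out of 45037 probe sets and 18193 genes. Igf2, H19 and Igf1r lie on chromosome 7, Igf2r on 17, Grb10 and Igf2bp1 on 11, Insr and Irs2 on 8, Irs1 on 1 and Igf2bp3 on 6. H19 had no probe set with 1 symbol, so no value of H19 is given. Of the 27 probe sets, 20 had a mean of at least 5 on the log2 scale of the arrays, where a difference of 1 is 2-fold.

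Induced cultures had been without tetracycline for 24 hours, and uninduced cultures (0 hours) were kept in it. Each condition was measured in 3 clones, A3, A4 and A5, with 1 array per clone and condition and 6 arrays in all. All clones derive from the ES line EBRTcH3 (EB3), were grown with LIF, and carry in the ROSA26 locus a human GTF2IRD2 coding sequence with a 3xFLAG tag behind a promoter that tetracycline represses. The uninduced cultures carry this transgene too, each clone is a single line, and no line without the transgene was among the arrays. The design asks which genes differ once the transgene is switched on, and it also allows the clones to be compared. For induction the replicates are the clones, each with 1 culture per condition. Between clones, the arrays of a clone are the induced and uninduced cultures of 1 line, so those p-values reflect scatter within lines. The moderated tests also draw on the spread of all probe sets, and no p-value here reaches beyond these 6 cultures.

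Igf2 and insulin-like growth factor 1 stimulate growth through the receptor tyrosine kinases Igf1r and Insr, whose adaptors Irs1 and Irs2 pass the signal to phosphoinositide 3-kinase. Igf2r is a scavenger: it takes Igf2 from the cell surface to the lysosome. In mice Igf2 is expressed from the paternal chromosome and H19, Igf2r and, in most tissues, Grb10 from the maternal one. Airn, a paternal noncoding RNA, silences Igf2r in cis once cells differentiate, and Igf2r is known to be expressed from both alleles in undifferentiated ES cells. Grb10 is an adaptor that restrains the receptors, and the RNA-binding proteins Igf2bp1 and Igf2bp3 bind Igf2 mRNA among others.

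Array medians lay between 5.03 and 5.06 (log2), and any pair of arrays correlated at 0.996 to 0.998 across probe sets. Markers of ES cells averaged 11.80 to 11.85 over 10 genes in every array, and none of them had a mean under 5. Markers of other cell types that such a culture could hold averaged, over the arrays, 5.51 to 5.71 for 11 extraembryonic endoderm genes, 5.38 to 5.82 for 9 trophoblast genes, 4.75 to 4.88 for 5 mesoderm genes and 5.48 to 5.57 for 9 fibroblast and feeder genes. Means under 5 were found for 6, 4, 3 and 5 of these. Gene means ran from 4.02 (Foxa2) to 10.11 (Sparc) in the endoderm list, from 3.05 (Gata3) to 8.95 (Tfap2c) in the trophoblast list, from 3.61 (Tbx6) to 5.76 (Mesp1) in the mesoderm list and from 2.56 (Col3a1) to 11.38 (Vim) in the fibroblast list. Induction called 0 genes of these lists, and the smallest p-values in the mesoderm and fibroblast lists belonged to Tbx6 (difference 0.18), Mixl1 (-0.19), Col1a2 (0.14) and Col3a1 (-0.13).

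The largest difference in the axis was between clones. Igf2r was lower in A3 than in A4 and A5 nearly 2-fold, and most expressed genes beside it on chromosome 17 were lower in A3 too. Because the results turn on Igf2r and Grb10, their promoters are given here from RefSeq (build GRCm38.p6, 250 bases before to 50 bases after the start, 5′ to 3′ on the strand of the gene, minus for both genes), with each CG in capitals. Igf2r starts on chromosome 17 (chr17:12769657-12769956), and Grb10 has an upstream start (chr11:12037371-12037670) and a downstream one (chr11:12027922-12028221) on chromosome 11.
Igf2r: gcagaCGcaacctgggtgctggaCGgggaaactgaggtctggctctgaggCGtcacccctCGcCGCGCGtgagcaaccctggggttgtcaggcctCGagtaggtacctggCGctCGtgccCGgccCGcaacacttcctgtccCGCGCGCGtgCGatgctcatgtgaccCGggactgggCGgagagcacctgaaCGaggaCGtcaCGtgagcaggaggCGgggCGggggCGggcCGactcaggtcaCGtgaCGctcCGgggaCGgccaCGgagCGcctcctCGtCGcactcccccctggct
Grb10 upstream: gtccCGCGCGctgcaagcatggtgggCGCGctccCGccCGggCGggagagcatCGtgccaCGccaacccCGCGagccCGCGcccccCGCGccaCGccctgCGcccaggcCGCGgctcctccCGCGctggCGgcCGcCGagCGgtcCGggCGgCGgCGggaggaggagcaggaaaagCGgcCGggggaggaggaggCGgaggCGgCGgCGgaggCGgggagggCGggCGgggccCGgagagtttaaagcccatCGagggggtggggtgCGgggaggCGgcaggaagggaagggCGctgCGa
Grb10 downstream: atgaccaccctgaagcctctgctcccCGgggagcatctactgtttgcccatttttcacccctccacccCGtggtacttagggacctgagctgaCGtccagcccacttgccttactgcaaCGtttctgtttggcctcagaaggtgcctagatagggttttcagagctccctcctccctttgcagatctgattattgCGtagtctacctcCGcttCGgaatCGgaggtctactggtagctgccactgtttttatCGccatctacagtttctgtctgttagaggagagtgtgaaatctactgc
The Igf2r promoter held 34 CG, which 7.7% of the 32851 promoters of this length match or exceed, and the upstream Grb10 promoter 45 CG, which 1.9% match or exceed. The downstream Grb10 promoter held 9 CG, against a median of 7 over all promoters. The GC box GGGCGG, searched on both strands, occurs 3 times in the Igf2r promoter, 5 times in the upstream Grb10 promoter and 0 times in the downstream one, and 35.7% of all promoters hold at least 1.

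Igf2r, the scavenger receptor, was the member with the largest range between clones. At probe set 1424112_at it read 6.02 and 6.10 in A3 (induced and uninduced, log2), against 6.99 and 7.00 in A4 and 7.03 and 7.04 in A5. Both A3 arrays lay below the other 4, and the arrays of A4 and A5 lay together. A3 minus A4 was -0.93 ± 0.08 (SE, n = 2 arrays per clone), or 1.91-fold lower in A3 (adjusted p = 0.00194 in limma), and A3 minus A5 was -0.97 ± 0.08, or 1.96-fold lower in A3 (adjusted p = 0.00241). A4 minus A5 was -0.04 (95% interval -0.23 to 0.15, adjusted p = 0.949). Probe set 1424111_at gave 5.70 and 5.86 in A3, against 6.54 and 6.73 in A4 and 6.68 and 6.80 in A5. Its A3 arrays were again the lowest, with A3 minus A4 at -0.85 (adjusted p = 0.00255) and A3 minus A5 at -0.96 (adjusted p = 0.00245). In limma's F-test of the clone term the adjusted p was 0.00240 and 0.00285 for these probe sets, and 2.18% of all probe sets passed it. Both calls stood in each of 10 alternatives, including each array left out in turn (adjusted p from 3.05e-05 to 0.0271). In bulk RNA, fewer cells with the transcript and less of it in each cell cannot be told apart.

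**Figure D1:**
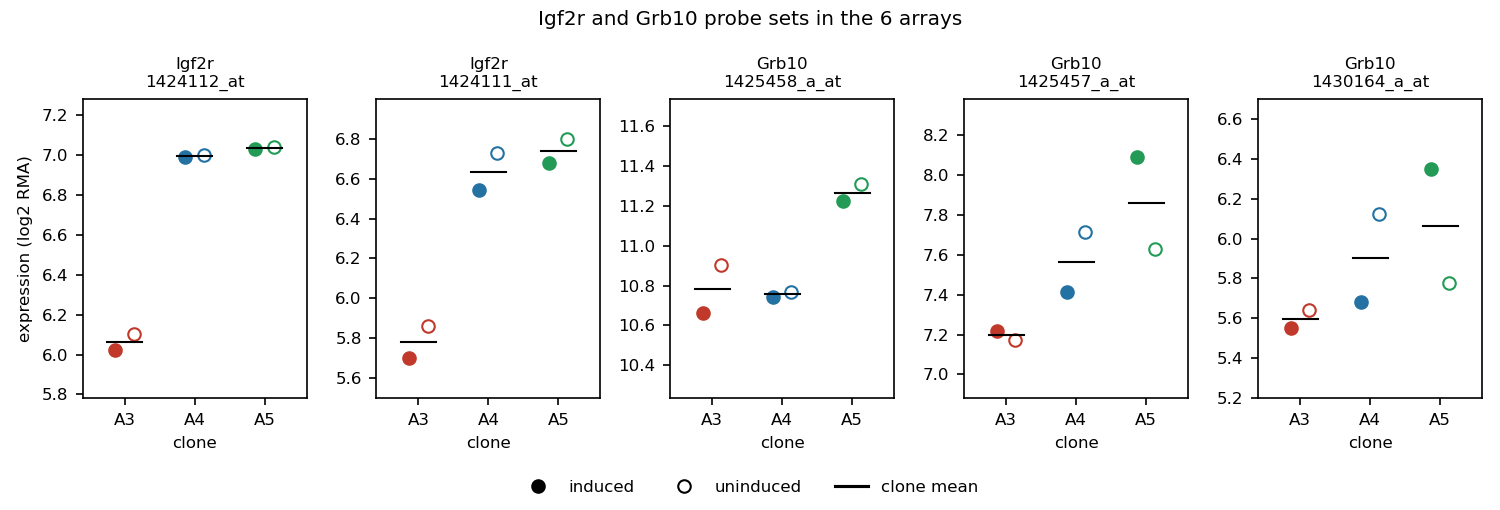
Expression of the Igf2r and Grb10 probe sets (log2 RMA, y axis, each panel spanning the same 1.5 units) in the clones (x axis), induced filled and left of uninduced open, with clone means as lines. The A3 arrays of Igf2r sit between 5.70 and 6.10, below all arrays of A4 and A5, while in Grb10 the A5 mean is the highest at each probe set.

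The genes around Igf2r were lower in A3 as well. Along chromosome 17, in the gene order of GRCm38.p6 and counting genes with a mean of at least 5, a stretch from Agpat4 to Zfp946 held 38 genes, Igf2r among them. In all 38 the A3 mean was below those of A4 and A5, and 32 (84.2%) passed limma's F-test with A3 lowest. Over the 11883 mapped genes with a mean of at least 5, A3 was lowest in 4909, and 238 passed with A3 lowest (2%). The rest of chromosome 17 gave 10 of 563 (1.78%) and the other chromosomes 196 of 11282 (1.74%). The median of A3 minus the mean of A4 and A5 was -0.69 in the stretch (range -1.16 to -0.03) and -0.02 over the rest of the chromosome, and the median of A4 minus A5 in the stretch was 0.01. Of the 10 genes before the stretch 1 passed with A3 lowest, and of the 10 after it 0 did. Of the 20 genes nearest to Igf2r, 10 on either side, 11 passed, all with A3 lowest. The stretch was noticed in these data, and its ends were set where more than 2 genes in a row were not called, so these values are a description with no test. Leaving out the uninduced A3 array left 17 of the 38 genes called, and leaving out the induced A3 array left 12. Over all probe sets the calls of the clone term fell as well, from 980 to 413 and 248. The arrays measured RNA only, and no DNA of the clones was analysed here.

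**Figure D2:**
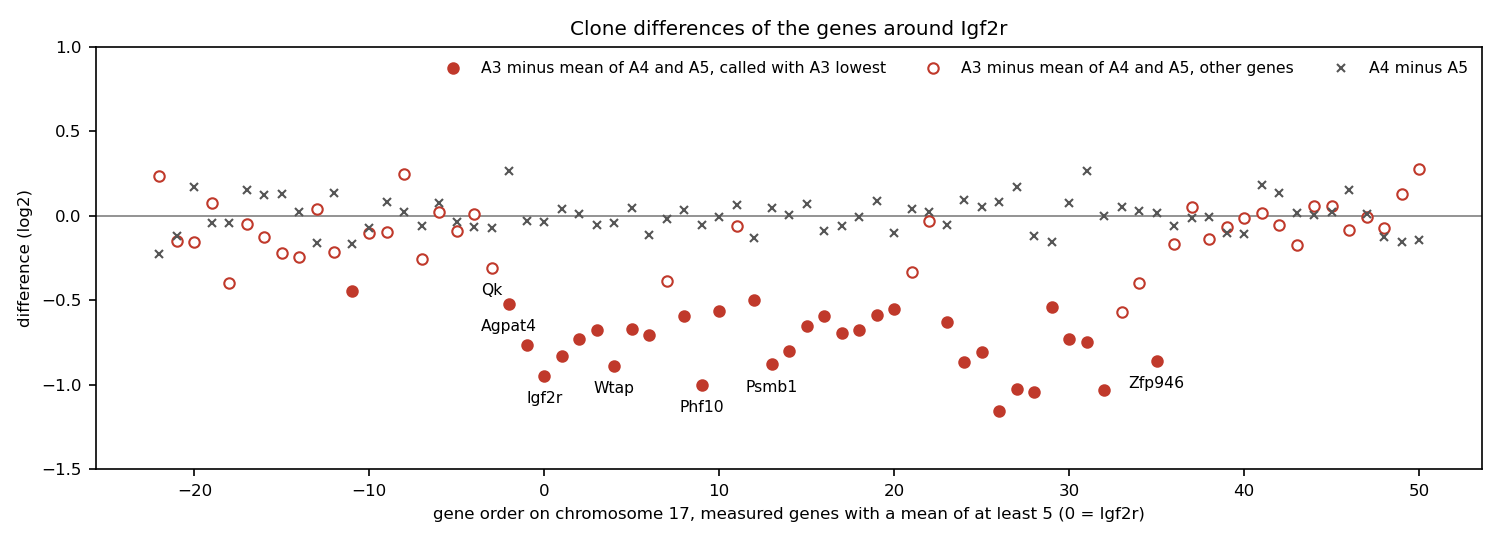
Clone differences (log2, y axis) of genes with a mean of at least 5 in their order on chromosome 17 (x axis, 0 is Igf2r): circles are A3 minus the mean of A4 and A5, filled where the clone term passed with A3 lowest, and crosses are A4 minus A5. Circles lie below 0 in all 38 genes from Agpat4 to Zfp946, with a median of -0.69, while the crosses scatter about 0.

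Among the neighbours, Wtap, part of the complex that methylates adenosine in mRNA, read 9.54 and 9.41 in A3 (induced and uninduced), against 10.34 and 10.34 in A4 and 10.39 and 10.37 in A5. Sod2, the mitochondrial superoxide dismutase, differed by -0.69 for A3 minus A4 and by -0.65 for A3 minus A5. Mrpl18, a protein of the mitochondrial ribosome, differed by -0.73 and -0.72, and Tcp1, a subunit of the cytosolic chaperonin, by -0.65 and -0.70. The proteasome subunit gene Psmb1 (-0.90 and -0.86) and Tbp, the TATA-binding protein (-0.81 and -0.80), lie farther along and were lower in A3 too. Among genes of the stretch that did not pass, Dll1, a Notch ligand, differed by -0.09 and -0.03 (adjusted p = 0.846) and Dact2 by -0.38 and -0.40 (adjusted p = 0.110). Airn, the antisense RNA of Igf2r, had 5 probe sets with means of 2.68 to 4.11, and its clone term did not pass at any (adjusted p 0.420 to 0.915 in the F-test). Slc22a2, an organic cation transporter that is imprinted with Igf2r in placenta, had a mean of 3.41 and did not pass either.

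Among all genes with a mean of at least 5, those whose values correlated most closely with Igf2r over the 6 arrays were Pttg1 (r = 0.998), Porcn (r = 0.998), Mrpl18 (r = 0.997), Pmaip1 (r = 0.996) and Baz2b (r = 0.996). Of these only Mrpl18 is among the 38 genes of the stretch. The points are 6 arrays of 3 clones, so these values describe the arrays and carry no p. For Grb10 they were Osbp2 (r = 0.990), Cdc5l (r = 0.986), Ropn1 (r = 0.985), Mob3a (r = 0.984) and Dab2 (r = 0.984). A high r does not mean a large difference. In the F-test of the clone term Baz2b did not pass (adjusted p = 0.191), and of the genes listed for Grb10 only Dab2 did. The others had adjusted p of 0.474 to 0.747, and Osbp2, for example, averaged 6.17, 6.17 and 6.33 in A3, A4 and A5.

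Grb10, the adaptor that restrains the receptors, ranged less. Probe set 1425458_a_at read 10.66 and 10.90 in A3 (induced and uninduced), 10.75 and 10.77 in A4 and 11.22 and 11.31 in A5. Both A5 arrays were the highest. A3 minus A5 was -0.48 (1.40-fold lower in A3, adjusted p = 0.0450) and A4 minus A5 was -0.51 (adjusted p = 0.314), and the clone term passed with adjusted p = 0.0405. This call held in 4 of 10 alternatives and was lost when any 1 array was left out (adjusted p 0.0555 to 0.191). Nor did the clone term pass for the mean over the probe sets of Grb10 (adjusted p = 0.167 in the F-test), where A4 minus A5 was -0.32. The other probe sets, 1425457_a_at and 1430164_a_at, had clone terms with adjusted p = 0.153 and 0.459. At 1425457_a_at the values were 7.22 and 7.17 in A3, 7.41 and 7.71 in A4 and 8.09 and 7.63 in A5, and at 1430164_a_at 5.55 and 5.64, 5.68 and 6.12, and 6.35 and 5.78. In both, A5 had the highest mean but its arrays differed from each other by 0.46 and 0.57. Of the 20 neighbours of Grb10, 1 passed in the clone term, Ddc, which makes dopamine and serotonin from their precursors and was highest in A3. Of the 20 neighbours of Igf2bp3, 0 did. Over all mapped genes with a mean of at least 5 the share was 4.22%, so both counts lay near it.

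Igf2bp3, an mRNA-binding protein of the fetal cell, had 6 probe sets, and A5 was the highest clone in each. At 1422611_s_at the values were 6.56 and 6.68 in A3 (induced and uninduced), 6.86 and 6.77 in A4 and 7.11 and 7.29 in A5. A3 minus A5 was -0.58 (adjusted p = 0.0255), and the clone term passed with adjusted p = 0.0428. It passed in 6 of 10 alternatives and was lost without either A3 array or either A5 array (adjusted p 0.0867 to 0.181). The other 5 probe sets had adjusted p of 0.0773 to 0.546, with A3 minus A5 between -0.47 and -0.28. Igf2bp1 had 4 probe sets with means of 9.34 to 10.72. The widest, 1449210_at, read 9.88 and 10.02 in A3, 9.51 and 9.35 in A4 and 9.46 and 9.75 in A5 and did not pass (adjusted p = 0.121). At the other 3 the clone means stayed within 0.25 of each other.

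No probe set of Igf1r, Insr, Irs1, Irs2 or Igf2 passed in the clone term. Igf1r, the main growth factor receptor of the axis, had 5 probe sets with ranges of clone means of 0.03 to 0.30 and adjusted p of 0.277 to 0.984 in the F-test. At 1452982_at it read 6.16 and 6.08 in A3 (induced and uninduced), 6.21 and 6.11 in A4 and 6.33 and 6.51 in A5. The other 4 probe sets of Igf1r ranged from 3.88 to 6.00 over all arrays. Insr, the insulin receptor, had 3 probe sets with ranges of 0.13 to 0.36, all with means under 5. Its widest, 1434446_at, read 4.12 and 3.76 in A3, 4.20 and 4.41 in A4 and 4.26 and 4.26 in A5, where the lowest array was the uninduced A3 culture (adjusted p = 0.308). The adaptor gene Irs1 read 3.94 and 4.33, 4.52 and 4.49, and 4.59 and 4.27 in A3, A4 and A5, and Irs2 6.30 and 6.32, 6.33 and 6.20, and 6.13 and 6.27. Neither passed, with adjusted p of 0.408 and 0.806. Igf2, the ligand, read 6.11, 5.83 and 6.01 in induced A3, A4 and A5 and 5.83, 5.80 and 5.93 in the uninduced cultures at 1448152_at. The values of its second probe set, 1415931_at, were between 3.31 and 3.53 over all arrays. The clone term did not pass at either (adjusted p = 0.590 and 0.693).

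Over all 27 probe sets the clone term passed at 4: both of Igf2r and 1 each of Grb10 and Igf2bp3. Over all probe sets it passed at 980 of 45037 (2.18%). By pair of clones, A3 minus A4 passed at 2 member probe sets (2.94% over all probe sets), A3 minus A5 at 4 (1.68%) and A4 minus A5 at 0 (0.0511%). The median range of clone means was 0.29 in members and 0.14 over all probe sets. The poly-A spikes, foreign transcripts that are put in ahead of labelling, averaged 6.91 and 6.58 in A3 (induced and uninduced), against 6.06 to 6.57 in the other 4 arrays. Trophoblast markers averaged 5.45 in A3, 5.79 in A4 and 5.74 in A5, with 3 of 9, Eomes, Krt18 and Tfap2c, called with A3 lowest, against 1.45% of all genes. Of the 11 endoderm markers 2 were called, against 3.09% of all genes: Lama1 (8.39 in A3, 7.69 in A4 and 8.05 in A5, adjusted p = 0.0393), highest in A3, and Dab2 (4.99, 4.90 and 5.40, adjusted p = 0.0390), highest in A5. Of the 10 ES cell markers 1 was called, Fgf4 (10.16, 9.65 and 9.69, adjusted p = 0.0287), highest in A3, and of the mesoderm and fibroblast markers 0 were. The part of the spikes and of these markers in the clone differences was not tested.

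**Figure D3:**
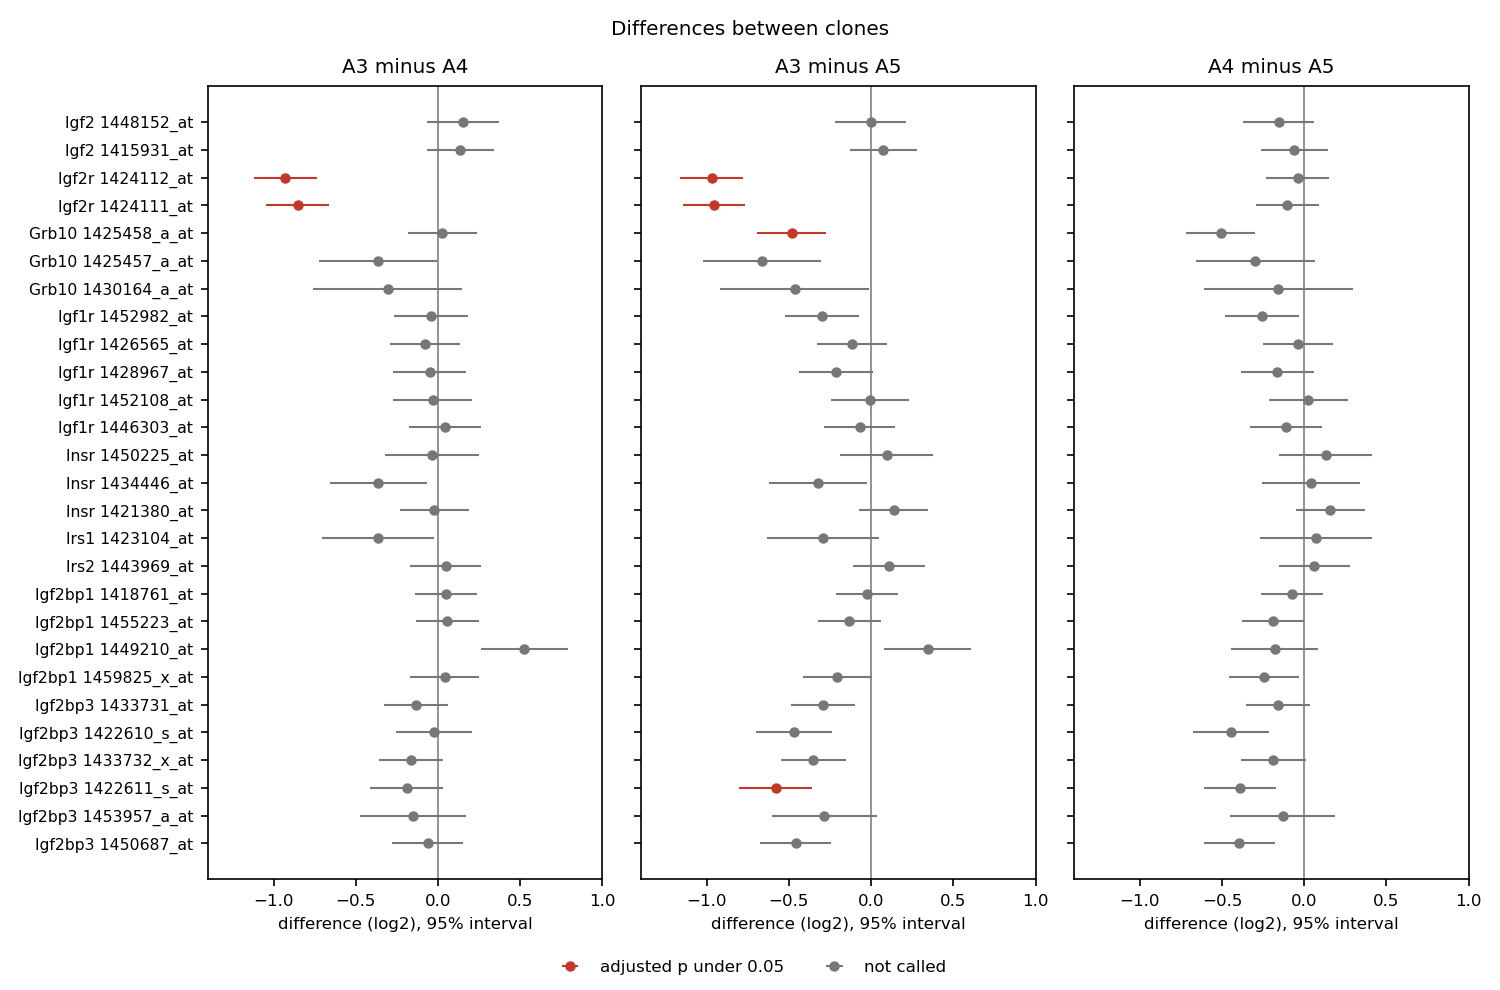
Differences between clones (log2, x axis, points with 95% intervals) for the 27 member probe sets (y axis), coloured where the adjusted p was under 0.05. The Igf2r probe sets lie between -0.97 and -0.85 in A3 minus A4 and A3 minus A5, and no A4 minus A5 difference is called. Some A4 minus A5 intervals still exclude 0, such as that of Grb10 at 1425458_a_at (-0.72 to -0.30).

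Switching on the transgene gave no call in the axis. Induced minus uninduced was between -0.15 and 0.13 over the 27 probe sets, with 11 above 0 and 16 below, and a median of -0.01, against -0.00373 over all probe sets. Limma called 0 of 27, as it called 0 of 45037 (0%), and the methods' t-test with Benjamini-Hochberg adjustment called 0 of both. At an unadjusted p under 0.05 there were 0 members, against 3.12% of all probe sets, and 7 of 27 had 1 sign in all 3 clones, against 25.9%. The fit behind these p-values does not pair the arrays of a clone, so differences between clones add to its spread. The median range of clone means was 0.29 in members and 0.14 over all probe sets. The induced and uninduced values did not overlap at 0 members, against 7.95%. The largest difference was that of Igf2r at 1424111_at, with 5.70, 6.54 and 6.68 in induced cultures of A3, A4 and A5, against 5.86, 6.73 and 6.80 in uninduced ones. The clones A3, A4 and A5 differed by -0.16, -0.18 and -0.12, while at 1424112_at the differences were -0.08, -0.01 and -0.01. With the clone as replicate block the unadjusted p at 1424111_at was 0.0521 and the adjusted p 0.843. Igf2 at 1448152_at differed by 0.13 ± 0.09 (SE, n = 3 per condition), or 0.28, 0.04 and 0.08 by clone, and its 95% interval ran from -0.07 to 0.33. For Igf2r at 1424112_at the difference was -0.03, with an interval from -0.19 to 0.12 with the block and from -0.75 to 0.69 without it.

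**Figure D4:**
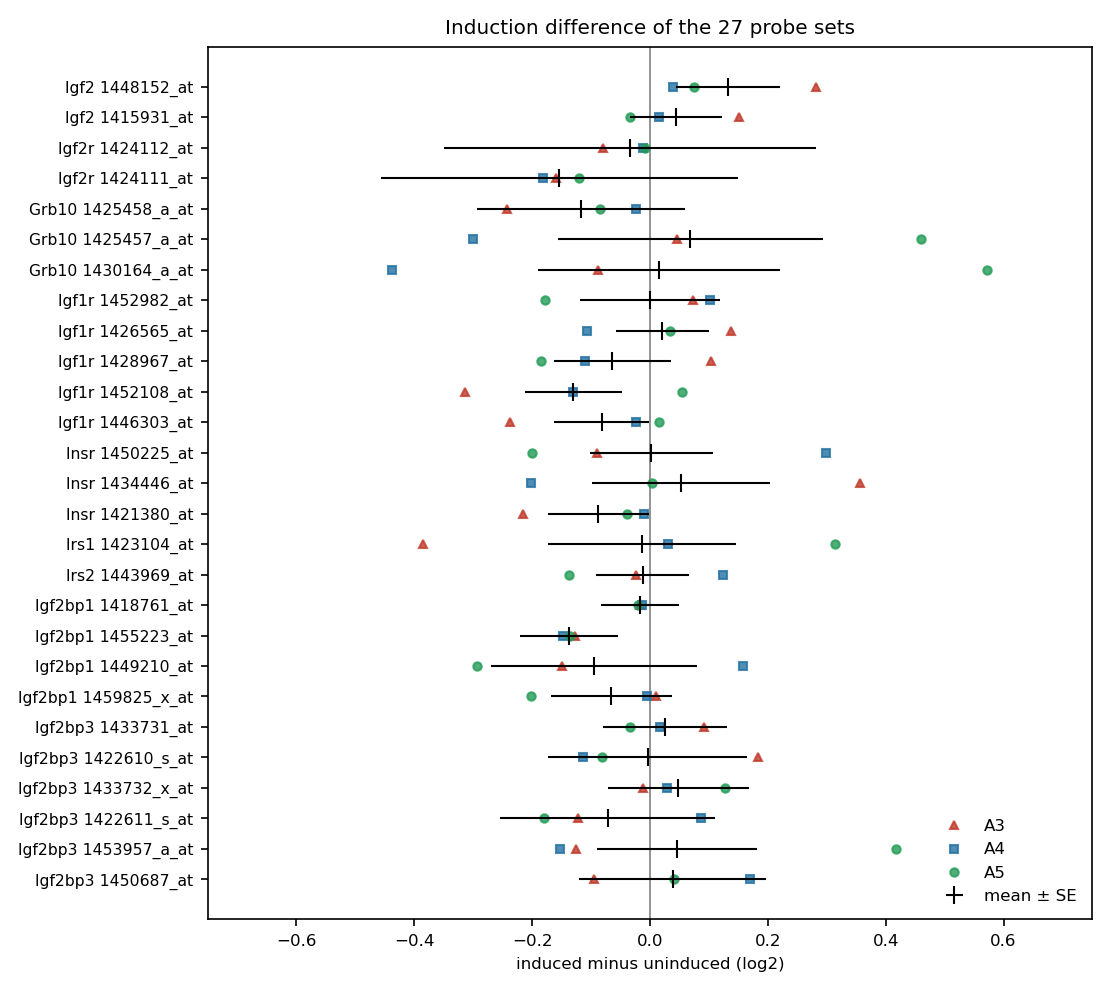
Difference of induced from uninduced cultures (log2, x axis) at the 27 member probe sets (y axis), with coloured symbols for single clones and black marks for the mean with its SE from limma without the block. Means lie between -0.15 and 0.13, and for most probe sets the clones scatter on both sides of 0.

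Of 111 further pathway and imprinting genes 102 had a probe set with 1 symbol, and each gene was represented by its probe set with the highest mean. Induction called 0 of them with or without the replicate block, and without it 0 had an unadjusted p under 0.05. The largest induction difference among them was that of Ascl2 at 1460514_s_at, 0.39, or 0.24, 0.49 and 0.44 in A3, A4 and A5. Its unadjusted p in limma was 0.197 without the block and 0.000951 with it, where the adjusted p was 0.843. This value was singled out after it was seen. The clone term passed at 7 of 102, against 562 of 18193 genes (3.09%), with 1 lowest in A3 (1.45% over all genes) and 6 highest in A3 (1.54%). None was called among 12 ligands and binding proteins, 15 receptor adaptors and phosphatases and 25 genes of the PI3K, Akt and mTOR pathway. The smallest induction p-values in these lists belonged to Igfbp5 (difference -0.10) and Igf1 (0.15), to Gab1 (-0.15) and Irs3 (-0.14), and to Rptor (-0.12) and Pik3ca (-0.10), none of which passed. In the first of these lists Igfbp4, a binding protein that holds IGFs in check, passed at probe sets that did not represent it, 1423756_s_at (adjusted p = 0.0342) and 1437405_a_at (0.0482), with A3 lowest. These were singled out after their values were seen. Among the regulators of Igf2 mRNA and let-7, Hmga2, an architectural chromatin protein, averaged 6.61 in A3, 5.91 in A4 and 6.17 in A5 (adjusted p = 0.0353). Among imprinted neighbours Ascl2, a trophoblast transcription factor (7.73 in A3, 6.97 in A4 and 6.86 in A5, adjusted p = 0.00627), Cdkn1c, an inhibitor of cyclin-dependent kinases (10.56, 9.85 and 9.89, adjusted p = 0.00838), and Ddc (8.85, 8.53 and 8.30, adjusted p = 0.0465) were highest in A3. Meg3, a maternally expressed noncoding RNA, was 9.82, 9.16 and 9.46 (adjusted p = 0.0321). Of the genes that maintain imprints, Dnmt3l, the cofactor of the de novo methyltransferases, was highest in A3 (12.48, 11.85 and 11.76, adjusted p = 0.00965), and Dppa3, which protects maternal methylation, was lowest in A3 (7.71, 8.91 and 8.13, adjusted p = 0.00202). For Dppa3 the contrasts called in limma were those with A4, A3 minus A4 (-1.21, adjusted p = 0.000975) and A4 minus A5 (0.79, adjusted p = 0.0371). Its A3 minus A5 was not called (-0.42, adjusted p = 0.0613).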

How the data were processed

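RNA of 6 ES cell cultures was hybridised to Affymetrix 430 2.0 arrays. The files hold deposited log2 expression values, 1 for each probe set, that the authors computed by RMA (background correction, quantile normalization, summarization) with affy, per the submitters' processing notes. Versions are not given in the sources used here, nor which arrays were normalized together. The number of arrays limits the precision. Of 45101 probe sets, 64 controls were set aside and 45037 tested without a filter. The probe table gives 1 symbol for 34945, several for 932 and none for 9160, and 34741 of the first matched the RefSeq gene table (GRCm38.p6) by Entrez identifier. The table was used for names and gene order only. No column of per-sample values was left unmapped.

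Groups and clones came from the labels. Moderated two-sided tests were run in R 4.3.3 with the lmFit and eBayes functions of limma 3.58.1, and p-values were adjusted by Benjamini-Hochberg over all probe sets (threshold 0.05). The study's methods name a t-test of induced against uninduced cultures and do not say whether it was paired, and induced minus uninduced was fitted here without a replicate block. The clone term (F-test) and the contrasts between clones came from a model with clone and induction. The labels name the clone, so uninduced and induced arrays of 1 clone are paired: their deviations from the group means had correlations of 0.524 (A3), 0.376 (A4) and 0.210 (A5), where arrays of different clones gave -0.407 to 0.0689. The code was tested on simulated data.

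The members, gene lists and tests were chosen with earlier results of these data known. Named were all probe sets of the members, up to 4 called genes of each other list (otherwise up to 2 with the smallest induction p), and the 5 genes most correlated with Igf2r and with Grb10. The probe set with the highest mean represents a gene, its standing probe set. Alternatives were the replicate block, the methods' t-test, an intensity trend, a mean of at least 5, median centring, a model with clone only, the mean over the probe sets of a gene, and arrays or clones left out. The figures were drawn with matplotlib 3.10.9.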

Additional observations from a re-analysis of the deposited data

How the results depend on the processing

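Induction called 0 member probe sets in every setting, the replicate block (0 called) and the methods' t-test (0 called) included, so the block changed no call. The clone term called 1885 probe sets at a mean of at least 5 and 2641 with an intensity trend, against 980, and 248 to 860 with 1 array left out. Of members it called 7 and 8 in those settings, against 4, and 2 to 4 with 1 array left out. Beyond Igf2r, Grb10 and Igf2bp3 these add Igf2bp1 at 1449210_at. A3 minus A5 called 8 and 8, and 2 to 5 with 1 array left out, and A4 minus A5 called 1 with an intensity trend. Igf2r was called throughout. In the stretch around Igf2r, 12 to 31 genes passed with 1 array left out, an alternative chosen after seeing the data. Without the replicate block, induction differences had no stable sign where they were small. With arrays or clones left out they ranged from -0.34 to 0.29 in Igf2r, -0.29 to 0.040 in Grb10, -0.076 to 0.14 in Igf1r, -0.15 to 0.10 in Insr, -0.18 to 0.19 in Irs1, -0.080 to 0.050 in Irs2, -0.039 to 0.00319 in Igf2bp1 and -0.063 to 0.12 in Igf2bp3. With 1 array left out, the induced and uninduced groups of these fits held unequal sets of clones. With a whole clone left out, Igf2r stayed between -0.046 and -0.011. Within each clone its difference was below 0 at both probe sets. Centring turned Igf1r to 0.012 and Irs2 to 0.000726, and the mean over probe sets turned Insr to -0.011. A4 minus A5 of Insr ranged from -0.092 to 0.35 with 1 array left out. Leaving out arrays or probe sets made them fewer, and leaving out 1 array made the clones of the induced and uninduced groups unequal. Any further cause was not tested.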

Other observations

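Toward its far end the stretch of chromosome 17 around Igf2r holds a group of zinc finger genes, and the largest difference of the stretch was that of Zfp53, which averaged 5.57, 6.77 and 6.69 in A3, A4 and A5 (A3 minus A4 -1.20, adjusted p = 0.00173 in limma's F-test of the clone term). Zfp760 averaged 6.21, 7.19 and 7.31, and Zfp948 6.03, 7.14 and 6.97. Zfp944 and Zfp758 did not pass (adjusted p = 0.149 and 0.275). Genes of this kind are close paralogs, and their probe sets may share signal. Rgmb, a coreceptor of bone morphogenetic proteins, averaged 5.37, 6.03 and 6.09 in A3, A4 and A5, and Ppp2r1a, the scaffold subunit of protein phosphatase 2A, 11.86, 12.47 and 12.52.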
